A study of Homo sapiens with 8 samples.

Results

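YAP and TAZ, the transcriptional coactivators at the end of the Hippo pathway, and 8 of the genes they act on were followed in human embryonic stem cells (hESCs) treated with an antibody that neutralizes MFGE8. The 10 genes are *YAP1* and *WWTR1*, which encode YAP and TAZ, and *CCN1*, *CCN2*, *ANKRD1*, *AMOTL1*, *AMOTL2*, *LATS2*, *AJUBA* and *NUAK2*. They were chosen by symbol for their roles in the pathway, with the differences between antibody and control in these same libraries already known. They are 10 of the 62086 genes of the count table, and all 10 were among the 20165 genes that passed the filter on low counts. Since the antibody comparisons had a part in the choice, the members' fold changes in them are given as a description, without p-values.

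The cells were of the line BG01, an established hESC line, grown in mTeSR medium. Cells received 5 µg/mL anti-M8nAb for 12 h or for 24 h, and the control groups received 5 µg/mL normal mouse IgG for the same times. Each of the 4 groups had 2 libraries, 8 in all and all of the same line. The labels call the libraries of a group biological replicates and do not say whether they came from separate cultures. A p-value here sets a difference against the spread between these libraries, which may not be the spread between separate cultures.

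In the Hippo pathway the kinases MST1 and MST2 activate LATS1 and LATS2, which phosphorylate YAP and TAZ and thereby hold them in the cytoplasm or mark them for degradation. When they are not phosphorylated, YAP and TAZ enter the nucleus and work through the TEAD family of DNA-binding factors, since neither binds DNA itself. *CCN1*, *CCN2* and *ANKRD1* are the genes most often used to read this activity, and several other targets (*LATS2*, the angiomotin-like genes, *AJUBA* and *NUAK2*) encode proteins that act back on the pathway. Cell contact, the actin cytoskeleton and adhesion to the matrix are its best known inputs, and in hESCs the pathway is known for its part in self-renewal and survival.

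The 250 bases upstream of the annotated starts are shown for the genes whose upstream stretch holds the core of the TEAD recognition motif and whose RNA passed the threshold (an adjusted p of 0.05) with a higher level under anti-M8nAb at both times. The sequences are from RefSeq on GRCh38.p14, written 5′ to 3′ on the strand of the gene, and capitals mark the core, GGAATG or, on the other strand, CATTCC. The stretches lie on the minus strand at chr6:131951373-131951622 (*CCN2*), chr10:90921088-90921337 (*ANKRD1*), chr1:205321746-205321995 (*NUAK2*) and chr3:134374448-134374697 (*AMOTL2*, the downstream one of its 2 annotated starts). The stretch of its upstream start, chr3:134375418-134375667, held no core.

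CCN2: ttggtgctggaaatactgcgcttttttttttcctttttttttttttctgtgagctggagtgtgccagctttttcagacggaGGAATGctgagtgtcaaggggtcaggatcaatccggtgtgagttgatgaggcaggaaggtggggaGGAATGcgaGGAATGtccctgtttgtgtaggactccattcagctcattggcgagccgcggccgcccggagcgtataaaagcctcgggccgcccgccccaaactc
ANKRD1: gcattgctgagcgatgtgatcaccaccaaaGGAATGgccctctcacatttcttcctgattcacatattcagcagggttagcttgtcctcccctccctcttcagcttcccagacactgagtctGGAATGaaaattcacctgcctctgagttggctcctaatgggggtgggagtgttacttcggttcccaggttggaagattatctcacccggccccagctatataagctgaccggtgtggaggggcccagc
NUAK2: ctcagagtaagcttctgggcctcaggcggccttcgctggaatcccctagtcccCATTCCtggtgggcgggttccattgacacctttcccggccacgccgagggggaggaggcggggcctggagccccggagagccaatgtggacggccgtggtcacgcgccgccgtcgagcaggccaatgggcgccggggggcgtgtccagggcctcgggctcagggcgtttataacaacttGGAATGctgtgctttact
AMOTL2: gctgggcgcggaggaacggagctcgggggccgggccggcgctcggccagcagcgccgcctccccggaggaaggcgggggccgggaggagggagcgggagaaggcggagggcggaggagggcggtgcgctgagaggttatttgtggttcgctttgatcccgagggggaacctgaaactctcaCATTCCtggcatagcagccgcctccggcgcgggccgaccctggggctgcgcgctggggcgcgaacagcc

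The *CCN2* stretch held 3 copies of the core, which begin 169, 104 and 95 bases before the start. *ANKRD1* had 2 copies, at 220 and 128 bases, and *NUAK2* had 2, at 197 bases on the other strand and at 18 bases. *AMOTL2* had 1 copy, at 69 bases on the other strand. *AJUBA* (1 of its 2 starts) and *YAP1* held 1 copy each, at 59 and 162 bases, and *AMOTL1*, *LATS2* and *WWTR1* held none. RefSeq promoter windows were matched for 9 of the 10 members, all but *CCN1*, and came to 12 windows. Of these, 6 held the core, against 11.9% of the 35116 windows of all genes. Among all windows 0.94% held at least 2 copies and 0.0826% at least 3. The AP-1 motif, searched as TGAGTCA and TGACTCA, stood in 0 of the 12 windows and in 4.2% of all, and the CArG box of SRF in 0 of the 12 and in 1.16% of all. Such matches describe the letters of these windows and show neither binding nor its absence. The members were chosen for their roles in this pathway, so their share with the TEAD core is no independent evidence of an excess. With only 12 windows, 0 matches to the 2 rarer motifs say little.

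**Figure D1:**
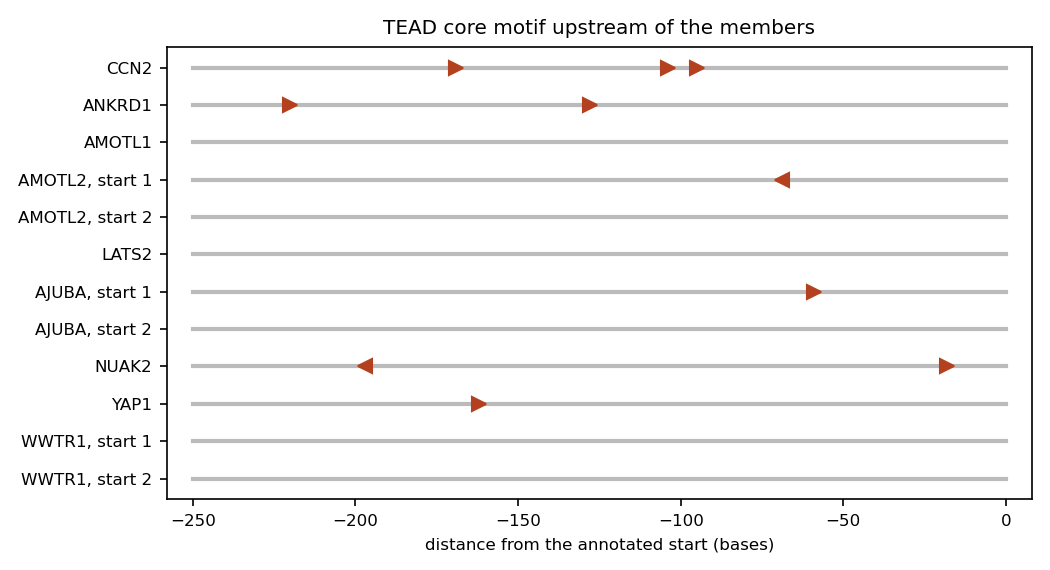
Each grey line is the stretch of 250 bases before an annotated start of a member (x axis: distance from the start in bases), and triangles mark the TEAD core, pointing right on the strand of the gene and left on the other strand. *CCN2* carries 3 copies, *ANKRD1* and *NUAK2* carry 2 each, and 6 of the 12 stretches carry any.

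The depth ran from 21010400 to 21792716 counts in genes, and levels are given as CPM, the counts scaled to a common depth, after TMM scaling. *MFGE8*, the gene of the antibody's target, ranged from 811 to 944 CPM in the 8 libraries. Its RNA was higher under anti-M8nAb, by 0.18 at 12 h and 0.15 at 24 h on the log2 scale (edgeR, adjusted p = 0.0015 and 0.0052). The antibody acts on the protein, so this RNA does not check the labels. The 10 pluripotency markers that define hESCs summed to between 6269 and 8043 CPM, with none at 0. They were 8001 to 8043 CPM under anti-M8nAb against 7115 to 7289 CPM under IgG at 12 h, and 6602 to 6803 CPM against 6269 to 6300 CPM at 24 h. Behind these sums 6 of the 10 were higher and none lower at 12 h, while at 24 h *POU5F1*, *LIN28A* and *DPPA4* were higher and *NANOG*, *SOX2* and *ZFP42* lower (edgeR, adjusted p under 0.05). The 8 fibroblast markers, of which 6 passed the filter, summed to 142 to 158 CPM against 159 to 162 CPM at 12 h and to 193 to 202 CPM against 194 to 209 CPM at 24 h. Under these sums *COL1A2* fell and *PDGFRB* rose at both times, and *FBN1* rose at 24 h. *DCN* and *LUM*, the 2 below the filter, had 0 counts in both anti-M8nAb libraries at 24 h, against 1 or 0 in the IgG libraries of that time. At 12 h they went the other way. *DCN* had 12 and 4 counts under anti-M8nAb against 2 and 2 under IgG, and *LUM* had 6 and 3 against 1 and 0. The 3 neural markers summed to 196 to 217 CPM against 179 to 182 CPM at 12 h and to 232 to 256 CPM against 169 to 178 CPM at 24 h, nearly all of it *NES*, since *PAX6* and *SOX1* averaged 1.39 and 0.494 CPM. All 3 were higher under anti-M8nAb at 12 h, and *NES* alone at 24 h (edgeR, adjusted p under 0.05). At 12 h *PAX6* had means of 2.87 against 1.01 CPM and *SOX1* of 0.999 against 0.23 CPM. Endoderm, mesoderm and trophectoderm or amnion markers, 4 of each, summed to at most 3.57, 2.71 and 20.9 CPM in any library. Among them *GATA3* was higher under anti-M8nAb at both times and *EOMES* at 12 h (edgeR, adjusted p under 0.05). *KRT7* was lower at 12 h, and *FOXA2* and *MIXL1* were lower at 24 h. Apart from *KRT7*, the group means of these genes were at most 2.81 CPM. The part of these markers in the values below was not tested. Fewer cells of a type and less RNA per cell cannot be told apart in such bulk libraries. Processed pseudogenes, which share reads with their parent genes, summed to 2862 and 4594 CPM with anti-M8nAb for 12 h and to between 1861 and 2218 CPM in the other 6 libraries; the part of this in the values at 12 h was not tested.

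The RNA of the coactivators themselves moved little. *YAP1* (chromosome 11, 102110447 to 102233424) measured 195 and 196 CPM under IgG at 12 h and 197 and 198 CPM under anti-M8nAb. After 24 h it stood at 169 and 151 CPM under IgG and 181 and 172 CPM under anti-M8nAb. The anti-M8nAb libraries were thus the higher ones at 12 h and at 24 h, without overlap. The log2 fold change was 0.01 (SE 0.06) at 12 h, where it did not pass the threshold of an adjusted p of 0.05, and 0.14 (SE 0.06) at 24 h, where it did. The direction at 12 h depended on the scale: in FPKM, the authors' measure of reads per length and depth, *YAP1* was 31.3 ± 0.0829 under IgG and 30.3 ± 0.325 under anti-M8nAb (SD, n = 2). The passing value at 24 h was lost without replicate 2 of IgG at 24 h, where the log2 fold change was 0.06, and without replicate 1 of anti-M8nAb at 24 h, where it was 0.10. It was lost as well without either IgG library of 12 h, at 0.14 each time, with DESeq2, in a fit of the 24 h libraries alone and in FPKM. These are RNA levels and hold no measure of YAP protein or of where in the cell it was.

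*WWTR1* (chromosome 3, 149517235 to 149736714), the gene of TAZ, measured 24.6 and 25.5 CPM under IgG and 32.0 and 30.9 CPM under anti-M8nAb at 12 h. After 24 h it stood at 31.7 and 30.2 CPM under IgG and 36.4 and 34.0 CPM under anti-M8nAb. The anti-M8nAb libraries were the higher ones at both times, and the IgG libraries of 24 h overlapped the anti-M8nAb libraries of 12 h. The log2 fold change was 0.33 (SE 0.09) at 12 h, past the threshold, and 0.18 (SE 0.09) at 24 h, not past it. The call at 12 h was lost without replicate 1 of IgG at 12 h, at a log2 fold change of 0.31, and without replicate 1 of anti-M8nAb at 12 h, also at 0.31, as it was on the scale of log2(FPKM + 1), at 0.21. On the FPKM scale, which allows genes to be compared, *YAP1* stood 10.5 and 10.1 times as high as *WWTR1* in the IgG libraries at 12 h and 8.12 and 8.47 times as high under anti-M8nAb. At 24 h the ratio was 7.07 and 6.60 under IgG and 6.59 and 6.69 under anti-M8nAb, so that the groups overlapped at 24 h only. Exons of genes on the other strand cover 10.1% of the *YAP1* exons and 9.05% of those of *WWTR1*, and reads of the 2 strands cannot be told apart there.

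**Figure D2:**
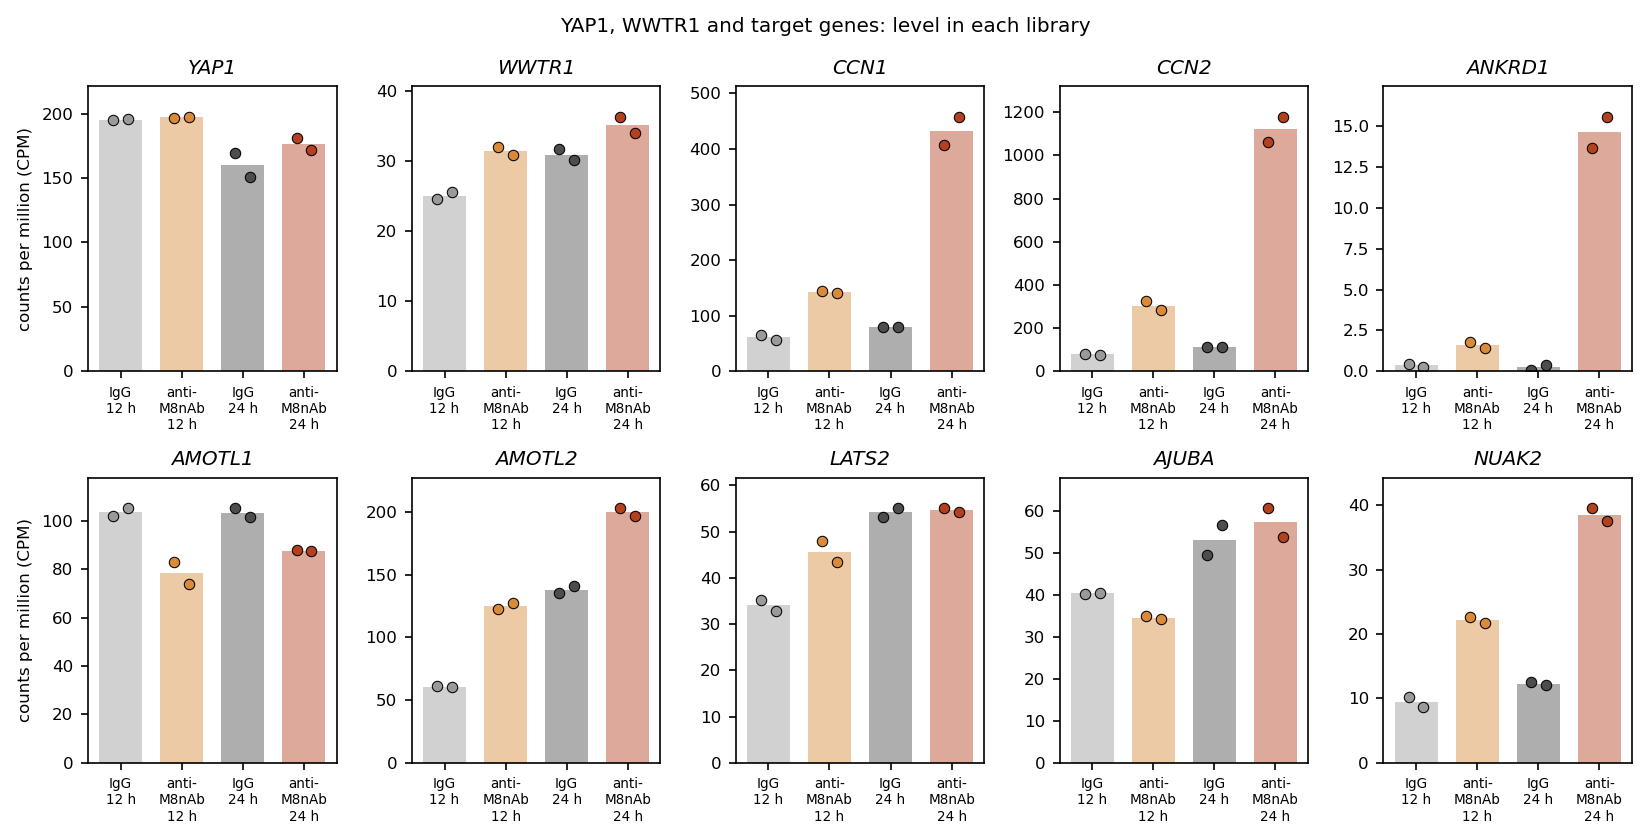
Each panel shows a gene's level in CPM (y axis from 0, a scale of its own per panel) in the 4 groups, with a point for each library and a bar for the mean of the 2 libraries. *CCN1*, *CCN2*, *ANKRD1* and *NUAK2* are highest in the anti-M8nAb libraries at 24 h, *YAP1* differs little, and *AMOTL1* is lower under anti-M8nAb at both times.

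*CCN1* and *CCN2* encode secreted matricellular proteins, and the RNA of both was higher under anti-M8nAb at each time, more so at 24 h. *CCN1*, also known as *CYR61* (chromosome 1, 85580761 to 85584589), measured 64.4 and 57.0 CPM under IgG and 145 and 142 CPM under anti-M8nAb at 12 h. At 24 h it measured 79.3 and 79.4 CPM under IgG and 407 and 458 CPM under anti-M8nAb. The groups did not overlap at either time, and the level rose in the order IgG at 12 h, IgG at 24 h, anti-M8nAb at 12 h and anti-M8nAb at 24 h, each group clear of the next. The fold between antibody and control was 2.36 at 12 h (log2 1.24, SE 0.06) and 5.45 at 24 h (log2 2.45, SE 0.06).

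*CCN2*, also known as *CTGF* (chromosome 6, 131948176 to 131951372), encodes connective tissue growth factor and carries the 3 TEAD cores shown above. It measured 81.5 and 76.3 CPM under IgG and 326 and 282 CPM under anti-M8nAb at 12 h. At 24 h it measured 111 and 114 CPM under IgG and 1063 and 1180.1 CPM under anti-M8nAb. The 4 groups fell in the same order as for *CCN1*, again without overlap. The fold was 3.85 at 12 h (log2 1.95, SE 0.06) and 9.99 at 24 h (log2 3.32, SE 0.06). Mean FPKM went from 34.1 ± 1.70 under IgG to 126 ± 12.2 under anti-M8nAb at 12 h and from 49.9 ± 1.08 to 469 ± 34.4 at 24 h (SD, n = 2), the last being the highest FPKM of any member in any group.

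Exons of *LINC01013*, a long non-coding gene on the other strand that is named here after its values were seen, cover 11.9% of the *CCN2* exons. It measured 40.6 CPM in each IgG library and 103 and 95.8 CPM under anti-M8nAb at 12 h, and 47.9 and 50.7 CPM against 310 and 311 CPM at 24 h. Its log2 fold changes were 1.29 (SE 0.07) and 2.66 (SE 0.06). The strand setting of the counting is not given in the sources used here, so reads of *CCN2* and of *LINC01013* cannot be told apart where they overlap.

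*ANKRD1* (chromosome 10, 90912096 to 90921087), an ankyrin repeat protein of muscle and a widely used YAP target, was low in the control libraries. It had 10 and 6 counts under IgG at 12 h and 36 and 30 counts under anti-M8nAb. At 24 h it had 2 and 9 counts under IgG and 281 and 320 counts under anti-M8nAb. These correspond to 0.461 and 0.276 CPM against 1.77 and 1.45 CPM for 12 h, and to 0.0888 and 0.396 CPM against 13.7 and 15.6 CPM for 24 h. The antibody groups stood clear of the control groups at each time, while the IgG groups of 12 and 24 h overlapped. The fold was 4.31 at 12 h (log2 2.11, SE 0.40) and 58.8 at 24 h (log2 5.88, SE 0.32), the latter on 11 control counts in all. The size of this fold rested on single libraries, with a log2 value of 7.27 without replicate 2 of IgG at 24 h and 5.17 without replicate 1.

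Among the targets that act back on the pathway, *NUAK2* and *AMOTL2* were higher under anti-M8nAb at both times. *NUAK2* (chromosome 1, 205302063 to 205321745) encodes a kinase of the AMPK-related family that acts on actomyosin. It measured 10.3 and 8.60 CPM under IgG and 22.7 and 21.7 CPM under anti-M8nAb at 12 h, and 12.5 and 12.0 CPM against 39.6 and 37.6 CPM at 24 h. The groups were separate at both times. The fold was 2.35 at 12 h (log2 1.23, SE 0.12) and 3.15 at 24 h (log2 1.65, SE 0.11).

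*AMOTL2* (chromosome 3, 134355347 to 134375479) encodes an angiomotin-like scaffold of cell junctions that binds YAP and promotes its phosphorylation by LATS. It measured 61.3 and 60.3 CPM under IgG and 123 and 127 CPM under anti-M8nAb at 12 h. At 24 h it measured 135 and 141 CPM under IgG and 203 and 197 CPM under anti-M8nAb. The control at 24 h was thus above the antibody group of 12 h, and the fold fell from 2.06 (log2 1.04, SE 0.06) at 12 h to 1.45 (log2 0.54, SE 0.06) at 24 h while the antibody libraries themselves were higher at 24 h.

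*LATS2* (chromosome 13, 20973036 to 21061586), the kinase that phosphorylates YAP and TAZ, measured 35.3 and 32.8 CPM under IgG and 48.0 and 43.4 CPM under anti-M8nAb at 12 h. At 24 h the levels were 53.2 and 55.1 CPM under IgG and 55.1 and 54.3 CPM under anti-M8nAb. The antibody libraries were the higher ones at 12 h and overlapped the control at 24 h. On the log2 scale the difference was 0.42 (SE 0.08) for 12 h and 0.01 (SE 0.08) for 24 h, where the means in FPKM went the other way (10.02 under IgG and 9.52 under anti-M8nAb).

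*AMOTL1* and *AJUBA* went the other way at 12 h. *AMOTL1* (chromosome 11, 94706431 to 94876748), the other angiomotin-like scaffold of the set, measured 102 and 105 CPM under IgG and 83.0 and 73.7 CPM under anti-M8nAb at 12 h, and 105 and 101 CPM against 87.9 and 87.4 CPM at 24 h. It was lower in every anti-M8nAb library than in any IgG library, with a log2 fold change of -0.40 (SE 0.07) at 12 h and -0.24 (SE 0.07) at 24 h. *AJUBA* (chromosome 14, 22971177 to 22982551), a LIM-domain protein that binds LATS kinases and holds back their activity, measured 40.2 and 40.6 CPM under IgG and 34.9 and 34.2 CPM under anti-M8nAb at 12 h. At 24 h these were 49.5 and 56.8 CPM under IgG and 60.7 and 53.9 CPM under anti-M8nAb, and the groups overlapped. The difference was -0.22 (SE 0.09) on the log2 scale for 12 h and 0.11 (SE 0.08) for 24 h. The value at 12 h no longer passed when any of the 4 libraries of that time was left out, nor with DESeq2 or in FPKM.

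**Figure D3:**
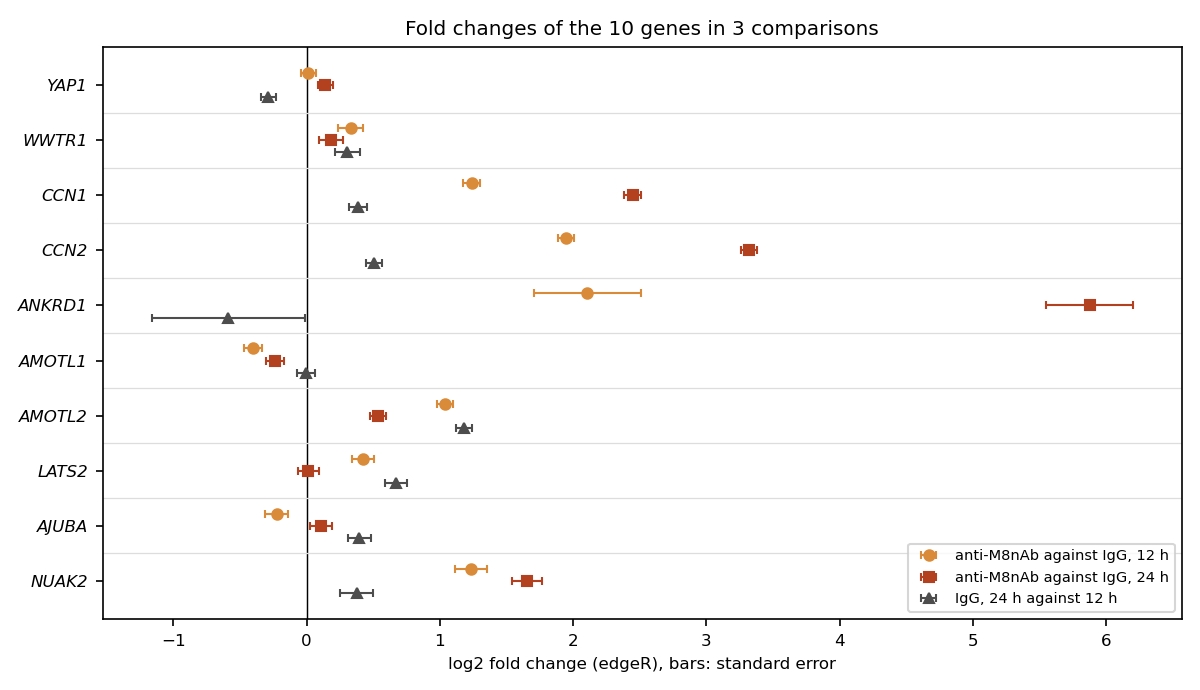
The x axis gives the log2 fold change from edgeR, and bars are standard errors (2 libraries per group). *CCN1*, *CCN2* and *ANKRD1* lie farthest to the right and farther at 24 h than at 12 h, while *AMOTL2* and *LATS2* are nearer to 0 at 24 h and have positive values in the IgG comparison of 24 h with 12 h.

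At 12 h, 7 of the 10 members passed the threshold with higher RNA under anti-M8nAb, against 15.8% of all genes tested, and 2 with lower RNA, against 16.4%. Where a log2 fold change of at least 1 was also asked for, 5 were higher, against 3.4% of all genes, and none was lower, against 2.97%. At 24 h, 6 members were higher, against 21.2% of all genes, and 1 was lower, against 21.3%. With the added fold limit 4 were higher, against 4.76%, and none was lower, against 4.84%. The members' median was 0.73 on the log2 scale at 12 h and 0.36 at 24 h, and that of all genes 0.00 each time. The median absolute change over all genes, whatever its sign, was 0.26 and 0.32. These counts describe genes chosen with the same contrasts in view and carry no test of the set.

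Time in culture with IgG alone was compared between 24 h and 12 h, in libraries that are also the controls of the antibody comparisons. As the members were chosen with earlier results of these libraries known, the counts and p-values below are no independent evidence about the set. Of the 10 members 7 rose, against 7.01% of all genes, and 1 fell, against 6.64% (edgeR's quasi-likelihood test, Benjamini-Hochberg adjusted over all genes). *AMOTL2* rose by 2.27-fold (log2 1.18, SE 0.06, adjusted p = 6.3e-19) and *LATS2* by 1.59-fold (log2 0.67, SE 0.08, adjusted p = 1.2e-07). *CCN2* rose by 1.42-fold (log2 0.51, SE 0.06, adjusted p = 1e-07) and *CCN1* by 1.31-fold (log2 0.39, SE 0.07, adjusted p = 4.4e-05). *AJUBA* rose by 0.40 on the log2 scale (SE 0.08, adjusted p = 0.00087). *NUAK2*, at 0.38 (adjusted p = 0.037), and *WWTR1*, at 0.30 (adjusted p = 0.023), passed too. *YAP1* fell by 0.29 on the log2 scale (SE 0.06, adjusted p = 0.0004). *ANKRD1* (log2 -0.59, SE 0.58, adjusted p = 0.57) and *AMOTL1* (log2 -0.00, SE 0.06, adjusted p = 0.98) did not pass, and their libraries overlapped between the times. Leaving out a library took the call from *NUAK2* (replicate 2 of IgG at 12 h, adjusted p = 0.39, or either library of IgG at 24 h, 0.12 and 0.088) and from *WWTR1* (replicate 1 or 2 of IgG at 12 h, 0.18 and 0.10, or replicate 1 of IgG at 24 h, 0.094). With limma on log2(FPKM + 1) the fall of *YAP1* did not pass (log2 -0.20, adjusted p = 0.065), nor did *NUAK2* or *WWTR1*.

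The response to the antibody was also set against itself, as the log2 fold change at 24 h less that at 12 h. The value was 3.77 (SE 0.65) for *ANKRD1*, 1.38 (SE 0.08) for *CCN2* and 1.21 (SE 0.09) for *CCN1*, the 3 members past the threshold on the positive side, where 5.79% of all genes were. It was -0.50 (SE 0.08) for *AMOTL2* and -0.41 (SE 0.12) for *LATS2*, the 2 members past it on the negative side, where 6.54% of all genes were. The other 5 lay between -0.15 (*WWTR1*) and 0.42 (*NUAK2*). The IgG libraries of both times enter this difference as well as the comparison over time. As the members were chosen with the antibody comparisons known, these counts are a description and carry no test of the set.

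Per length, the members differed widely in level. Among 20011 protein-coding genes ordered by mean FPKM, *CCN2* moved from place 1211 under IgG at 12 h to place 31 under anti-M8nAb at 24 h. *CCN1* moved from 2769 to 267, *AMOTL2* from 4523 to 1395, *NUAK2* from 8654 to 3842 and *ANKRD1* from 13358 to 4962. *YAP1* stood at 1339 and 1544 and *WWTR1* at 8429 and 7290 in the same 2 groups. Together the 10 genes took 0.0607 and 0.0624% of a library's counts under IgG and 0.0929 and 0.0978% under anti-M8nAb at 12 h, 0.0772 and 0.0773% under IgG at 24 h, and 0.210 and 0.224% under anti-M8nAb at 24 h. In order of FPKM, *YAP1* was next to *CCN2* as the highest members under IgG at 12 h, and was below *CCN2*, *CCN1* and *AMOTL2* under anti-M8nAb at 24 h.

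**Figure D4:**
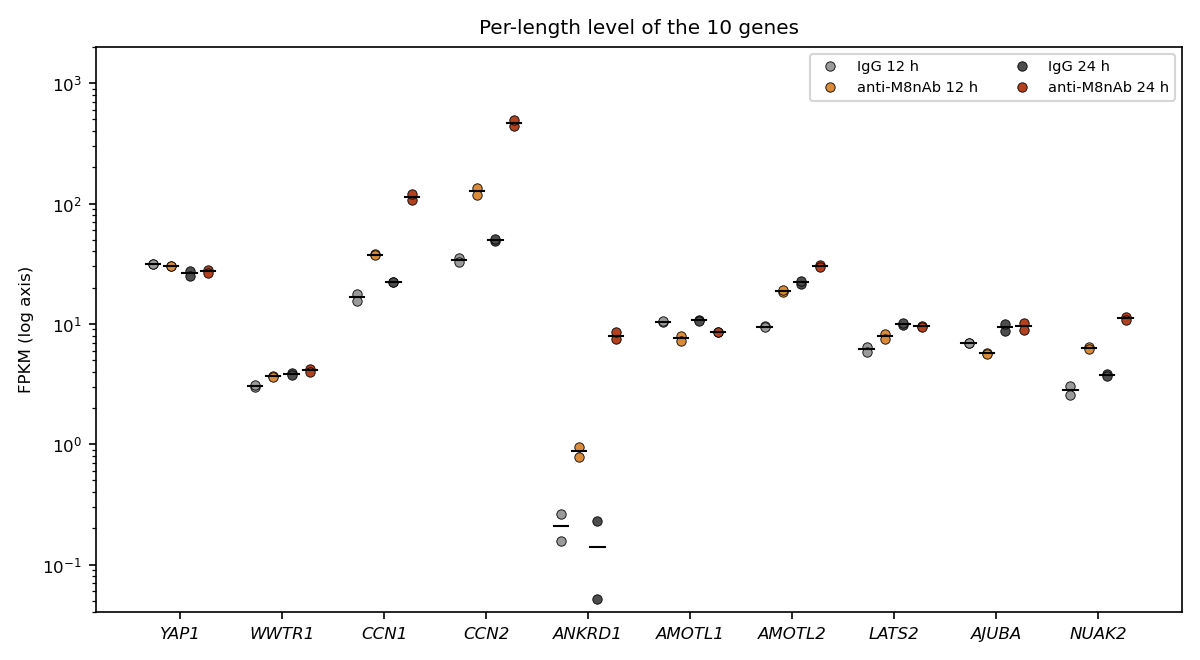
The y axis gives FPKM on a log axis, so that genes can be compared per length. Points are libraries and short lines the means of 2. *CCN2* reaches a mean of 469 under anti-M8nAb at 24 h, *WWTR1* stays between 2.98 and 4.26, and *ANKRD1* has a mean of 0.141 under IgG at 24 h and of 7.99 under anti-M8nAb.

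The genes whose pattern over the 8 libraries was nearest to that of *CCN2* and of *YAP1* were looked for among 13287 protein-coding genes, by the root mean square difference of their log2 CPM after each gene was centred on its own mean. Among the 5 nearest to *CCN2* were *CER1* (0.29 on the log2 scale), *TWIST1* (0.32), *TAC1* (0.34) and *JUN* (0.34), while the root mean square of *CCN2* around its own mean was 1.49. *CER1* encodes a secreted antagonist of Nodal and BMP, *TWIST1* a transcription factor of mesenchyme, *TAC1* the precursor of substance P and *JUN* a subunit of AP-1. The log2 fold changes of these 4 at 24 h ran from 2.94 (*TAC1*) to 3.92 (*JUN*), and *CER1* and *TWIST1* averaged under 4 CPM. For *YAP1* the 5 nearest were *NCOR1* (0.025), *ANKRD28* (0.035), *SLC11A2* (0.036), *PRMT5* (0.036) and *WDFY2* (0.037), against a root mean square of 0.13 for *YAP1* itself.

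The other genes of the pathway came in 6 lists of 64 genes, of which 56 passed the filter on low counts. Under anti-M8nAb 15 of them rose and 6 fell at 12 h (median log2 fold change 0.11), and 24 rose and 7 fell at 24 h (median 0.21). As shares of the 56 this is 26.8% higher with 10.7% lower at 12 h, then 42.9% higher with 12.5% lower at 24 h, to be read beside the shares of all genes given above. Over time under IgG 8 rose (14.3%, against 7.01% of all genes) and 5 fell (8.93%, against 6.64%). The 8 were *SAV1*, *LATS1*, *TEAD1*, *WTIP*, *NUAK1*, *FRMD6*, *ARHGAP29* and *CSNK1E*. The 5 were *MAP4K4*, *TAOK1*, *TEAD2*, *DLG1* and *BTRC*. *SAV1* and *WTIP* were named after their values were seen. Adjusted p-values are from edgeR over all genes tested. The lists were chosen with earlier results of these data known, so that neither their counts nor these p-values are independent evidence of a direction.

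Of the DNA-binding partners of YAP and TAZ, *TEAD1* rose at both times, with a mean of 206 ± 4.70 CPM against 122 ± 3.45 CPM at 12 h (log2 0.76, SE 0.06, adjusted p = 1.3e-14) and 245 ± 13.1 CPM against 141 ± 4.97 CPM at 24 h (log2 0.80, SE 0.06, adjusted p = 6.7e-16; SD, n = 2). *TEAD4* fell by 0.23 (adjusted p = 0.0057) and by 0.21 (adjusted p = 0.0081) on the log2 scale. *TEAD3* was -0.21 at 12 h (adjusted p = 0.059) and rose by 0.23 at 24 h (adjusted p = 0.026). *TEAD2* passed at neither time, with -0.13 (adjusted p = 0.066) and 0.01 (adjusted p = 0.92), and 10.7% of its exons overlap the other strand. *TEAD1*, *TEAD3* and *TEAD4* were all that passed in the antibody comparisons of the 6 TEAD and VGLL genes tested. At 12 h 16.7% of the 6 rose and 16.7% fell, against 15.8 and 16.4% of all genes. At 24 h 33.3% rose and 16.7% fell, against 21.2 and 21.3%.

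In a further set of YAP and TAZ targets, the 16 genes of a published signature that are not members, 14 were tested. At 12 h 5 rose (35.7%, against 15.8% of all genes) and 1 fell (7.14%, against 16.4%). At 24 h 7 rose (50%, against 21.2%) and 1 fell (7.14%, against 21.3%). *GADD45A*, a stress response gene, rose by 0.63 (adjusted p = 6.2e-06) and 1.68 (adjusted p = 9e-19) on the log2 scale at 12 and 24 h, and *MYOF*, a membrane repair protein, by 0.83 (adjusted p = 0.031) and 1.67 (adjusted p = 3.3e-06). *PTPN14*, a phosphatase that binds YAP, rose by 0.54 and 0.73 and *CCDC80*, a matrix protein, by 0.71 and 0.96 (adjusted p of 0.0076 or less). *AXL*, a receptor tyrosine kinase, was -0.08 at 12 h (adjusted p = 0.52) and rose by 0.61 at 24 h (adjusted p = 7.5e-08), and *CRIM1* rose by 0.41 at 24 h (adjusted p = 0.00026). *IGFBP3* (higher at 12 h), *ASAP1* (higher at 24 h, log2 0.28, adjusted p = 0.0026) and *DOCK5*, which fell at both times, complete these counts and were named after their values were seen. With DESeq2 *DOCK5* passed at neither time. Over time under IgG, where most members rose, 0 of these 14 genes passed as higher and 0 as lower. The shares of all genes there were 7.01 and 6.64%, and the median log2 fold change of the 14 was 0.17.

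In the kinase module upstream of YAP no log2 change was above 0.46 or below -0.38. Of its 13 genes 2 rose and 2 fell at 12 h, 15.4% each way, near the 15.8 and 16.4% of all genes. At 24 h 6 rose (46.2%, against 21.2% of all genes) and 2 fell (15.4%, against 21.3%). *LATS1*, the partner of *LATS2*, rose by 0.44 at 12 h (adjusted p = 6e-05) and 0.22 at 24 h (adjusted p = 0.027). At 24 h *STK3*, which encodes MST2, rose by 0.46 (adjusted p = 0.0018) and *NF2*, which encodes merlin, by 0.42 (adjusted p = 0.00016), while *TAOK2* fell by 0.38 (adjusted p = 0.0001). *STK4*, which encodes MST1, fell by 0.24 at 12 h (adjusted p = 0.013) and 0.33 at 24 h (adjusted p = 0.00053). *TAOK1* rose by 0.38 (adjusted p = 5.6e-06) and *TAOK3* by 0.30 (adjusted p = 0.026) at 24 h. The other genes behind the counts at 12 h, named after their values were seen, were *MOB1A*, which rose, and *MAP4K4*, which fell. Of 4 genes for the degradation of YAP and TAZ, the F-box genes *BTRC* and *FBXW11* rose by 0.44 each at 24 h (adjusted p = 5e-05 and 1.1e-07), *CSNK1E* rose by 0.23 and 0.26 at 12 and 24 h (adjusted p = 0.0053 and 0.00069) and *CSNK1D*, 16.9% of whose exons overlap the other strand, rose by 0.19 at 12 h (adjusted p = 0.012) and was -0.11 at 24 h (adjusted p = 0.15). From 12 to 24 h the mean of *BTRC* fell from 46.6 to 36.3 CPM under IgG and went from 53.4 to 49.4 CPM under anti-M8nAb. That of *FBXW11* went from 103 to 94.1 CPM under IgG and from 107 to 128 CPM under anti-M8nAb.

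Among 6 paralogues of the members that could be tested, *NUAK1* rose at 12 h (log2 0.41, adjusted p = 6e-05) and *LIMD1*, a relative of *AJUBA* with 24.9% of its exons overlapped, at 24 h (log2 0.49, adjusted p = 1.6e-06). At each time this is 16.7% of the 6, against 15.8% of all genes at 12 h and 21.2% at 24 h, and none fell. Of 13 junction and polarity regulators 4 rose (30.8%, against 15.8% of all genes) and 2 fell (15.4%, against 16.4%) at 12 h. At 24 h 5 rose (38.5%, against 21.2%) and 3 fell (23.1%, against 21.3%), so the shares that fell were near those of all genes. The protocadherin pair *FAT4* and *DCHS1*, a receptor and its ligand, moved apart, with *FAT4* up by 1.39 (adjusted p = 4.7e-07) and 0.60 (adjusted p = 0.012) and *DCHS1* down by 0.84 (adjusted p = 2.1e-07) and 0.45 (adjusted p = 0.0012); 10.3% of the *DCHS1* exons overlap the other strand. *TJP1*, which encodes ZO-1, rose by 0.25 (adjusted p = 0.00069) and 0.60 (adjusted p = 9.4e-12), and *ARHGAP29* rose by 0.52 (adjusted p = 0.014) and 0.50 (adjusted p = 0.0046). At 24 h *FRMD6* rose by 0.62 (adjusted p = 6.6e-06) and *PATJ* by 0.23 (adjusted p = 0.014). *FAT1* (higher) and *DLG1* (lower) at 12 h and *CRB3* and *PALS1* (lower) at 24 h complete the counts and were named after their values were seen.

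**Figure D5:**
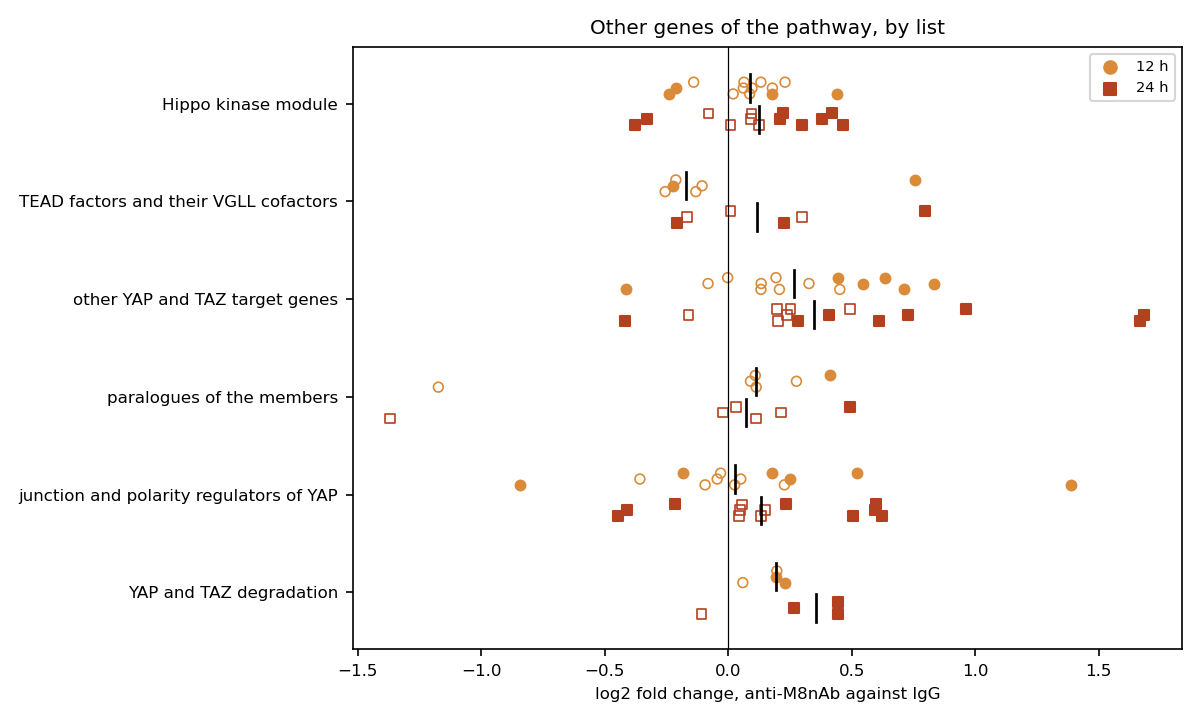
Each point is a gene of a pathway list, with its log2 fold change between anti-M8nAb and IgG on the x axis, circles for 12 h and squares for 24 h. Filled points passed an adjusted p of 0.05 and black lines are list medians; *GADD45A* and *MYOF*, both in the list of other targets, reach 1.68 and 1.67 at 24 h, and the kinase module stays between -0.38 and 0.46.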

How the data were processed

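RNA was sequenced from BG01 hESCs treated with anti-M8nAb or IgG for 12 or 24 h. Per the labels and the study's methods, the authors used Trimmomatic for trimming, STAR in its 2-pass mode for alignment to GRCh38.p14, Picard to drop duplicates and HTSeq to count reads in Ensembl genes; FastQC 0.11.9 and GATK also appear in the submitters' processing notes. The deposited values are whole-number counts per gene and, in a second table, the authors' FPKM from RNAnorm. Each table holds 4 further columns, not used here. Of the count lines, 1005 have no gene name and were left out; the largest held 49.3 to 50.2% of a library's counts, and those before the last 5 such lines held 0.192 to 0.21%.

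All 62086 genes were paired with a symbol in GENCODE on GRCh38. edgeR's filterByExpr left 20165 genes, which were scaled by TMM and fitted with a mean per group in edgeR 4.0.16 (R 4.3.3). Contrasts were tested by the two-sided quasi-likelihood F test with Benjamini-Hochberg adjustment over all genes and called at an adjusted p under 0.05. The study's own criterion adds a 2-fold change, given here as a log2 fold change of 1. The common biological coefficient of variation was 5.53%. Alternatives were DESeq2 1.42.0, its size factors in edgeR, other filters, limma 3.58.1 on log2(FPKM + 1) and log2(FPKM + 0.1), the replicate number as a block, each time alone and leaving out each library.

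Groups came from the labels. The members and the gene lists were chosen with earlier results of these data known. A further gene list, and a gene of it among those nearest to *CCN2*, are not reported here. Named are all members and *MFGE8*, *TEAD1* to *TEAD4* and *LATS1*, in each list every gene called (lists of up to 10 tested genes) or the 6 with the smallest adjusted p at 24 h, and the 5 protein-coding genes nearest in pattern to *CCN2* and to *YAP1*. Marker lists (pluripotent, fibroblast, endoderm, mesoderm, neural, trophectoderm or amnion) are given as summed CPM. Motifs were searched on both strands of the 250 bases before RefSeq gene starts; the CArG box has C at its first 2 and G at its last 2 positions, with 6 of A or T between.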

Additional observations from a re-analysis of the deposited data

Results flagged for a closer look

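For 13 named genes of the pathway lists and for *LINC01013*, the response to anti-M8nAb differed between 24 h and 12 h, by edgeR's test of that difference (adjusted p under 0.05 over all genes). The value below is the log2 fold change at 24 h less that at 12 h. Of the 56 tested genes of the lists, 11 were more positive at 24 h (19.6%, against 5.79% of all genes). More negative were 3 (5.36%, against 6.54%). *VGLL3*, at 0.56, was among the 11 and is named here after its values were seen. The lists were chosen with earlier results known, and *LINC01013* was named after its values were seen, so these p-values are no independent evidence.

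Among other targets of YAP and TAZ, *GADD45A* differed by 1.05 (SE 0.15, adjusted p = 7.8e-07) and *AXL* by 0.69 (SE 0.12, adjusted p = 6.4e-05). Both *AXL* libraries under anti-M8nAb were below the control at 12 h and above it at 24 h. *TEAD3*, with a difference of 0.44 (adjusted p = 0.011), was likewise below at 12 h and above at 24 h, as was *PATJ* at 0.33 (adjusted p = 0.044).

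Of the regulators, *TAOK1* differed by 0.29 (adjusted p = 0.027), *MAP4K4* by 0.34 (adjusted p = 0.0011), *DLG1* by 0.32 (adjusted p = 0.029), *LIMD1* by 0.38 (adjusted p = 0.017), *TJP1* by 0.35 (adjusted p = 0.0027) and *FBXW11* by 0.39 (adjusted p = 0.0019). The difference went the other way in *TAOK2* at -0.44 (adjusted p = 0.0045), *NUAK1* at -0.38 (adjusted p = 0.016) and *CSNK1D* at -0.30 (adjusted p = 0.014). *NUAK1* rose over time under IgG as well (log2 0.54, adjusted p = 3.5e-06), and its libraries of 24 h overlapped between antibody and control. *TAOK1*, *MAP4K4* and *DLG1* fell over time under IgG, with means going from 131 to 107, 305 to 252 and 77.7 to 63.2 CPM. Under anti-M8nAb their means at 12 and 24 h were 139 and 139, 263 and 275, and 68.3 and 69.3 CPM. *LIMD1*, *TJP1*, *FBXW11*, *TAOK2* and *CSNK1D* passed in neither direction over time under IgG. *LINC01013*, which overlaps *CCN2* on the other strand, differed by 1.36 (SE 0.09, adjusted p = 2.2e-15).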

How the results depend on the processing

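No result of the members reversed past the threshold. The members called higher at 12 h (7) and at 24 h (6) stayed within 1.5 times under every alternative, with 6 to 7 and 5 to 6 when 1 library was left out. The 2 called lower at 12 h became 1 without the filter, with DESeq2 and in all 3 FPKM fits, 1 to 2 when a library was left out, and 0 with the fold limit; the 1 lower at 24 h became 0 with the fold limit. Over time under IgG the 7 that rose became 4 on log2(FPKM + 0.1), 2 on log2(FPKM + 1) without a filter and 1 with the fold limit (5 to 7 when a library was left out), and the 1 that fell became 0 in the 3 FPKM fits and with the fold limit. *ANKRD1* under IgG moved between log2 -1.98 and 0.12 when a library of 24 h was left out, and on log2(FPKM + 1) its antibody values shrank to 0.63 at 12 h and 2.98 at 24 h, since a pseudocount weighs most on low genes.

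In the pathway lists the 15 higher at 12 h became 9 without the filter, 5, 5 and 4 on log2(FPKM + 1), log2(FPKM + 0.1) and unfiltered log2(FPKM + 1), and 1 with the fold limit. They ran from 8 (without anti-M8nAb 12 h replicate 1) to 15 when a library was left out, with 9 without IgG 12 h replicate 2. The 6 lower at 12 h became 3 on unfiltered FPKM and 0 with the fold limit, and ran from 1 (without IgG 12 h replicate 2) to 7, with 2 without IgG 12 h replicate 1, 3 without anti-M8nAb 12 h replicate 1 and 2 without its replicate 2. The 24 higher at 24 h became 12, 12 and 9 in the FPKM fits and 2 with the fold limit. The 7 lower at 24 h became 4 without the filter, 4 with DESeq2 and 0 with the fold limit. The 11 more positive responses became 5 without the filter, 7 with DESeq2, 2, 2 and 0 in the FPKM fits and 1 with the fold limit. They ran from 4 (without IgG 12 h replicate 2) to 10, with 7 without anti-M8nAb 12 h replicate 2 and 6 without IgG 24 h replicate 2 or anti-M8nAb 24 h replicate 1. The 3 more negative became 1 without the filter, 1, 1 and 0 in the FPKM fits and 0 with the fold limit, and ran from 0 (without IgG 12 h replicate 1) to 5 (without anti-M8nAb 24 h replicate 1). The cause was not tested, beyond the fewer libraries or stricter limit that define a setting.

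The FPKM scale also moved the balance of all calls, from 3196 higher and 3300 lower to 1550 and 2881 at 12 h, from 4270 and 4296 to 2334 and 4319 at 24 h, and from 1414 and 1339 to 529 and 237 over time under IgG, with medians of -0.04, -0.07 and 0.02. A lone library left in a group was assumed to vary like the other groups. With the replicate number as a block the counts were 7 higher and 2 lower members at 12 h, 6 and 1 at 24 h and 7 and 1 over time, and 15 and 6, 24 and 7 and 11 and 3 in the lists, equal to those without it. Deviations of libraries with the same number correlated at -0.052 to 0.043 over 16714 genes, and nothing in the labels pairs them. With 2 libraries per group and *ANKRD1* at 2 to 10 control counts, its fold is the least certain of the members.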
